A study of Mus musculus with 13 samples.

Results

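The genes described here are 9 members of the signalling pathway that holds primordial follicles dormant or activates them: *Kit*, *Pik3ca*, *Pdpk1*, *Akt1*, *Foxo3*, *Cdkn1b*, *Tsc1*, *Tsc2* and *Mtor*. They were taken by name from the 49585 genes of the 13 libraries, and every one of them was detected in every library. The libraries hold RNA of oocytes from ovaries of P5 mice of the strain CD-1, kept in culture overnight. In 8 libraries the ovaries received 0.5 Gy of γ-irradiation, with 2 libraries each at 0, 1 and 4 h and 1 library each at 2.5 and 6 h. In the other 5 libraries they received 0.2 Gy, with 1 library for each of the same 5 time points. The 0 h ovaries were collected before irradiation, and no unirradiated library of a later time point was analysed here. In the labels, replicate 1 of 0.5 Gy belongs to a first generation, replicate 2 and the 2.5 and 6 h libraries to a second, and all of 0.2 Gy to the third. The study's sample table lists the read totals of both replicates of 1 h, and of both of 4 h, after 0.5 Gy in the opposite order to the files, so that their generation is in doubt. The labels were kept, and values with these replicates exchanged are given for *Kit*, *Pik3ca* and *Sesn2*, while the comparison of the second with the first generation was not run that way. All of 0.2 Gy is the third generation, so a difference between the doses cannot be told apart from one between generations. This holds for the level of a gene and for its change over time. For each time point 4 ovaries were pooled, dissociated with trypsin and spun to part oocytes from follicular cells. Nothing states that the duplicates came from separate litters, so that p-values measure only the spread between these libraries.

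In a primordial follicle, the receptor tyrosine kinase KIT on the oocyte binds KIT ligand from the granulosa cells and recruits PI3K, whose catalytic subunit p110α is encoded by *Pik3ca*. The lipid made by PI3K brings PDPK1 and AKT together at the membrane, and active AKT phosphorylates FOXO3, which then leaves the nucleus. Nuclear FOXO3 keeps the follicle dormant, as does p27, the cell cycle inhibitor encoded by *Cdkn1b*, while the complex of TSC1 and TSC2 restrains the growth kinase MTOR. Most of this control acts on phosphorylation and localization of the proteins, which RNA levels do not report. In GRCm38, *Kit* lies at chr5:75574916-75656722, *Pik3ca* at chr3:32397671-32468486, *Tsc1* at chr2:28641228-28691167, *Mtor* at chr4:148448611-148557683 and *Cdkn1b* at chr6:134920401-134925513, all on the plus strand. On the minus strand are *Foxo3* at chr10:42181841-42276755, *Akt1* at chr12:112653821-112674884, *Pdpk1* at chr17:24073680-24150924 and *Tsc2* at chr17:24595816-24632630.

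Some stretches of sequence matter for reading the values below. The first is exon 9 of *Kit* on chromosome 5, for which the annotation has 2 coding forms that differ by 12 bases at chr5:75639147-75639158 (GRCm38, plus strand), printed here in capitals between 24 bases on either side.
Kit, long form: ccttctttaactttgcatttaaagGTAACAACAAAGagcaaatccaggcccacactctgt
Kit, short form: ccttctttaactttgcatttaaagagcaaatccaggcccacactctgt
The second is the last exon of a processed, noncoding transcript of *Tsc2*, at chr17:24612627-24613059 (GRCm38, minus strand, 433 bases). Of its 404 stretches of 30 bases, the read length, 309 (76.5%) also occur in transcripts of other genes, 308 genes in all, and the 17 exons before it have 0. Capitals mark the 299 of 300 bases that lie in such a shared stretch at chr17:24612632-24612931.
Tsc2, last exon of the processed transcript: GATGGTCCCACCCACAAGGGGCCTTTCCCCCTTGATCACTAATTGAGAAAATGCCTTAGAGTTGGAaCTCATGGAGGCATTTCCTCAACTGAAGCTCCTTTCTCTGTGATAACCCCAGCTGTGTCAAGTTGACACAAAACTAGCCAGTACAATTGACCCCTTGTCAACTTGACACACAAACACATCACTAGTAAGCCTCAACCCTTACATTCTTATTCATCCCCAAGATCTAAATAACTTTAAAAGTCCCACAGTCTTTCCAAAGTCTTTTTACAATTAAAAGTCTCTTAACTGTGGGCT
The third is the promoter window of *Pik3ca* of 300 bases around the RefSeq start, at chr3:32396815-32397114 (GRCm38.p6, plus strand). Among 12 such windows of the 9 members it is the only one with a p53 family half-site, starting 82 bases before the start and printed in capitals, a motif found in 8.36% of 32851 promoter windows.
Pik3ca, promoter: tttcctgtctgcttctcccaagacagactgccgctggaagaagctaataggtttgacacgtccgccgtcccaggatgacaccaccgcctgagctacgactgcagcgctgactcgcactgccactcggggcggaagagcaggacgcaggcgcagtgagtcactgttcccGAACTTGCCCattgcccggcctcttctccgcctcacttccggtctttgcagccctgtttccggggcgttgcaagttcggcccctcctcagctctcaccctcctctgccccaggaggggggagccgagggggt
The FOXO element GTAAACA, searched on both strands, occurred in 1 of the 12 windows, that of *Akt1* at chr12:112674835-112675134, and in 3.65% of all windows. A match of letters shows no binding.

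None of the 9 members was called as changed after irradiation with edgeR's quasi-likelihood test, where a call is an adjusted p under 0.05 over all genes tested. This held for any time point of 0.5 Gy against 0 h, where 0 of 28468 genes passed and 0% is the background, with 1094 genes at an unadjusted p under 0.05 and 222 called by DESeq2's likelihood ratio test. It held for the late libraries of 0.5 Gy (2.5, 4 and 6 h) against the early ones (0 and 1 h), where the background was 0.133% of 22588 genes, and for 4 and 6 h against 0 and 1 h after 0.2 Gy, where it was 0.0462% of 28162. The difference between the doses late against early was fitted without 2.5 h in either dose, here and below, and is therefore not the difference of the changes printed for each dose. It gave 0 members, as did the change per hour over all 13 libraries, against 0.0320% and 0.0374% of all genes. DESeq2 called 1 member, *Tsc2* after 0.2 Gy, where it called 157 genes in all against 13 with edgeR. It called 0 members in the other comparisons over time. With an unadjusted p under 0.05 there were 1, 2, 2 and 0 members in these 4 comparisons, against 9.06%, 7.29%, 8.14% and 7.35% of all genes tested. Late or early pools time points, which are not replicates of one condition.

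**Figure D1:**
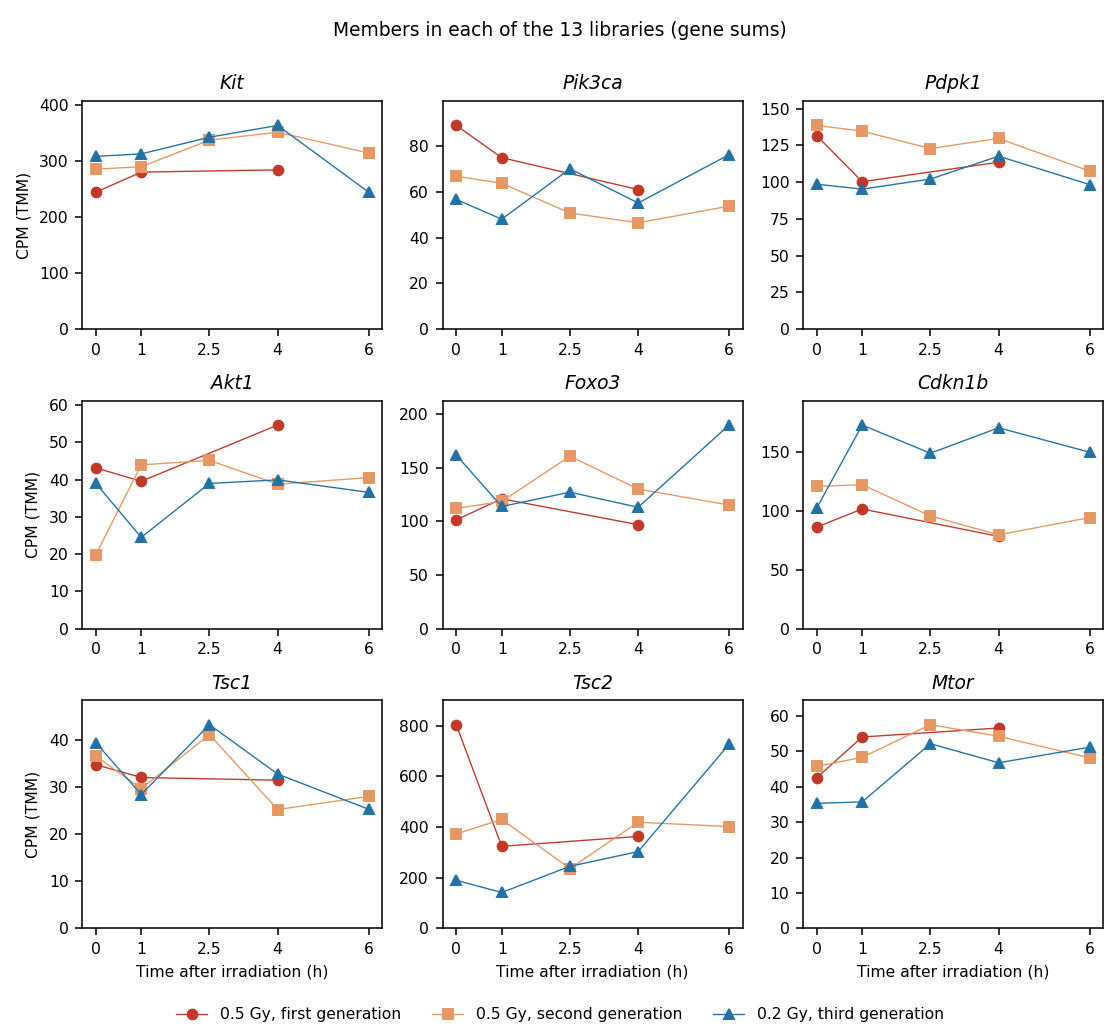
CPM (TMM-normalised gene sums, y axis from 0) of each member against time after irradiation (h), 1 point per library, with lines joining the libraries of 1 generation. *Pik3ca* at 0.5 Gy lies lower from 2.5 h on (46.5 to 61.1) than before (63.8 to 89.1), and *Tsc2* ranges from 142 to 804.

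*Kit* was the most abundant member per length. The TPM of its coding transcripts had a median of 16.7 (range 6.78 to 20.0 over 13 libraries), followed by *Pdpk1* with 12.8, *Cdkn1b* with 12.7, *Foxo3* with 6.19, *Akt1* with 5.75, *Pik3ca* with 2.53, *Mtor* with 2.36, *Tsc2* with 1.33 and *Tsc1* with 0.675. Each neighbour in this order stood above the next in every library only for *Cdkn1b* over *Foxo3*, *Akt1* over *Pik3ca* and *Tsc2* over *Tsc1*, and *Mtor* was above *Tsc2* in 12 of 13. *Kit* was above *Pdpk1* in 9 libraries and *Pdpk1* above *Cdkn1b* in 6, so that those neighbours overlap. The gene sums of *Kit* were also the steadiest, with an SD of log2 CPM (reads assigned to the gene, scaled to a common library size) of 0.18 over 13 libraries, smaller than that of all but 7.84% of the 10821 genes with at least 10 CPM, whose median SD was 0.31. *Pdpk1* (0.19), *Mtor* (0.23), *Tsc1* (0.25), *Foxo3* (0.28) and *Pik3ca* (0.28) lay below this median, and *Akt1* (0.38), *Cdkn1b* (0.40) and *Tsc2* (0.70) above it.

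*Kit*, the receptor at the head of the pathway, was at 244 and 285 CPM in the 0 h libraries of 0.5 Gy, while the 1 h libraries had 279.8 and 289. The 2.5 h library had 337, the 4 h libraries 284 and 351, and the 6 h library 314. The late libraries were thus on the whole higher, but the lowest of them lay below the highest early one. The late-to-early log2 fold change was 0.25 (SE 0.14, 95% interval -0.05 to 0.55, adjusted p = 0.628 with edgeR). After 0.2 Gy *Kit* was at 308, 312, 342, 363 and 244 from 0 to 6 h, and the log2 fold change of 4 and 6 h against 0 and 1 h was -0.03 (interval -0.49 to 0.44). The upper bound of the interval after 0.5 Gy corresponds to a fold of 1.47.

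Part of the *Kit* reads were assigned to transcripts that keep an intron. The coding transcripts took between 55.9% and 91.2% of them, and the share was lowest in 0 h replicate 1 of 0.5 Gy, followed by 4 h replicate 1 (65.9%) and 1 h replicate 1 (74.8%), the 3 libraries labelled as the first generation. With the 1 and 4 h replicates exchanged, only the first of them would belong to it. In replicate 1 of 0.5 Gy, 1 transcript with a retained intron was at 103 (0 h), 63.4 (1 h) and 87.3 CPM (4 h). These values lay above the 16.3 to 43.8 of the second generation and the 23.7 to 59.5 of the third, as labelled. With the 1 and 4 h replicates exchanged, the first generation would have 103, 43.8 and 23.6, which overlap the other libraries. How many transcripts separate as labelled was not counted. Counting coding transcripts only, the late libraries of 0.5 Gy were at 294, 187, 311 and 281 and the early ones at 136, 259.9, 209 and 232. The log2 fold change was 0.38 (SE 0.21, interval -0.09 to 0.84, adjusted p = 0.612 with edgeR). Within the generations the mean log2 level differed less (late minus early), by 0.15 in the first (1 library against 2) and 0.27 in the second (3 against 2). With the 1 and 4 h replicates exchanged these values were 0.81 and 0.096.

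The long form of exon 9 made up most of the reads of both coding forms in all libraries but 0 h replicate 1 of 0.5 Gy. At 0.5 Gy its share was 43.6% and 63.9% (0 h), 77.5% and 61.5% (1 h), 58.9% (2.5 h), 55.1% and 56.4% (4 h) and 61.6% (6 h). After 0.2 Gy it lay between 57.6% and 69.4%. At 0.5 Gy the mean share was 58.0% ± 2.89 late and 61.6% ± 13.9 early (SD, n = 4 each, exact two-sided permutation p = 0.629, the smallest possible being 0.0286). The difference was smaller than the spread of the early libraries. In this exon, the reads that cover or skip these 12 bases tell the forms apart. The annotated transcript of the short form is also longer at its 5' end (5241 against 5214 bases in all). How far this difference enters the split was not tested, and the split is an estimate given without its error.

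**Figure D2:**
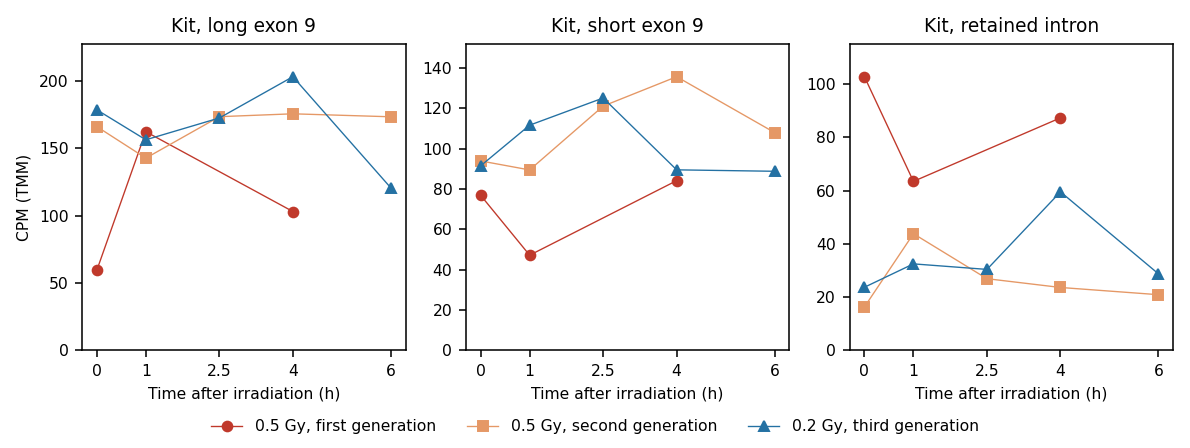
CPM (y axis from 0) of 3 *Kit* transcripts, with the long exon 9, the short exon 9 and a retained intron, against time after irradiation (h), 1 point per library, with symbols and lines for dose and generation. The transcript that keeps an intron is at 63.4 to 103 in the first generation, as labelled, and at or below 59.5 in the other libraries.

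*Pik3ca* was the only member whose late and early libraries of 0.5 Gy did not overlap, which was the case for 5.04% of 26764 genes. Its level was 89.1 and 66.9 CPM at 0 h, then 75.0 and 63.8 at 1 h. From 2.5 h on it was lower in every library, with 50.8 (2.5 h), 61.1 and 46.5 (4 h) and 53.8 (6 h). The log2 fold change was -0.45 (SE 0.16, interval -0.79 to -0.11), with an unadjusted p of 0.0139 and an adjusted p of 0.442 with edgeR, so that the change was not called. Against 0 h alone, the log2 fold change was -0.10 (1 h), -0.51 (2.5 h), -0.47 (4 h) and -0.46 (6 h), with SEs of 0.28 to 0.35. Within the first generation the mean log2 level differed by -0.42 (late minus early, 1 library against 2), and within the second by -0.38 (3 against 2). With the 1 and 4 h replicates exchanged these values were -0.70 and -0.36. Over the alternative settings, the fits without 1 library included, the value lay between -0.50 and -0.35 and the adjusted p between 0.245 and 0.780. After 0.2 Gy the order was not the same: *Pik3ca* was at 56.8 and 48.1 early, 70.1 at 2.5 h, and 55.2 and 76.3 at 4 and 6 h (log2 fold change 0.33, interval -0.17 to 0.83). The difference between the doses was 0.76 on the log2 scale (interval 0.13 to 1.40, adjusted p = 0.564 with edgeR) and was not called.

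Neither kinase between PI3K and FOXO3 was called. *Pdpk1*, which phosphorylates AKT, lay between 100.3 and 139 CPM at 0.5 Gy and between 95.2 and 118 at 0.2 Gy. Its late-to-early log2 fold change was -0.07 (interval -0.40 to 0.26) after 0.5 Gy and 0.16 (interval -0.29 to 0.61) after 0.2 Gy. *Akt1* was at 19.8 in the 0 h library of 0.5 Gy with the fewest reads and at 24.5 in the 1 h library of 0.2 Gy, and between 36.6 and 54.7 in the other 11. Its log2 fold changes were 0.31 (interval -0.22 to 0.84) and 0.27 (interval -0.51 to 1.05), the widest intervals but for *Tsc2*. Without the 0 h library at 19.8, the first of these was 0.10.

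*Foxo3*, the transcription factor that keeps the follicle at rest, was at 101 and 112 CPM at 0 h of 0.5 Gy, and the later libraries had 121 and 118 (1 h), 161 (2.5 h), 96.9 and 130.0 (4 h) and 115 (6 h). The 2.5 h library was the highest and a 4 h library the lowest, so that late and early libraries overlapped. After 0.2 Gy the values were 162, 114, 127, 113 and 189.7 from 0 to 6 h, with the first and the last time point above the others. The late-to-early log2 fold change was 0.18 (interval -0.21 to 0.56, adjusted p = 0.801) after 0.5 Gy and 0.13 (interval -0.43 to 0.69, adjusted p = 0.931 with edgeR) after 0.2 Gy. Without the 6 h library of 0.2 Gy the second value was -0.25, and without the 2.5 h library of 0.5 Gy the first was 0.02. Against 0 h alone, the 2.5 h library of 0.5 Gy stood at 0.69 (SE 0.31) and the 6 h library at 0.19 (SE 0.32). All 5 annotated transcripts of *Foxo3* are coding, so that its coding share is fixed by the annotation.

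*Cdkn1b*, which encodes p27, had the largest difference between the libraries of the doses. At 0.2 Gy the 5 libraries had 103, 173, 149, 171 and 150.0 in order of time. At 0.5 Gy it lay between 78.5 and 122 with a median of 95.2, so that the 0 h library of 0.2 Gy fell inside that range and the other 4 above it. The log2 fold change of 0.2 Gy against 0.5 Gy, with the hour as a covariate, was 0.63 (SE 0.15, interval 0.31 to 0.94), which missed the threshold with edgeR (adjusted p = 0.131) and passed it with DESeq2's Wald test (0.60, adjusted p = 0.0304). In edgeR's test 0.0187% of 26764 genes were called, and 0.867% of genes had doses that did not overlap, with 0 of the 9 members among either. DESeq2 called 652 genes in this comparison. Dose and generation cannot be told apart here. Between the generations of 0.5 Gy as labelled, *Cdkn1b* was higher in the second by 0.33 (interval 0.03 to 0.64, adjusted p = 0.342 with edgeR). This value rests in part on the 1 and 4 h labels that are in doubt, and it was not computed with these replicates exchanged. Replicates 1 and 2 had 102 and 122 CPM at 1 h and 78.5 and 79.8 at 4 h. Late against early the log2 fold change was -0.29 (interval -0.65 to 0.07) after 0.5 Gy and 0.22 (interval -0.35 to 0.79) after 0.2 Gy.

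**Figure D3:**
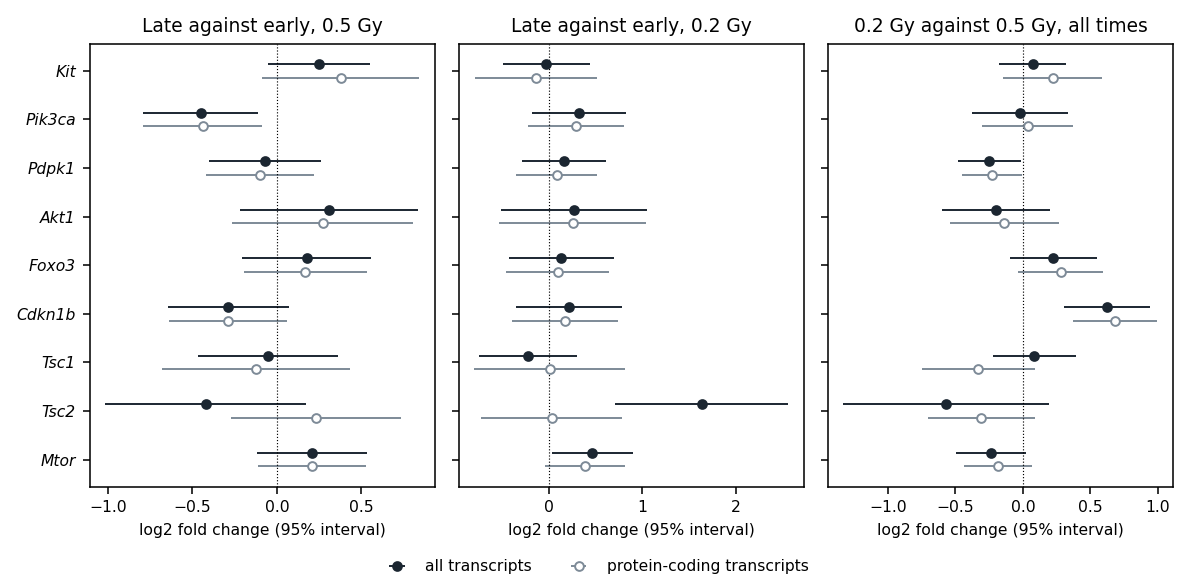
Log2 fold change (x axis) with its 95% interval from edgeR for each member, counting all transcripts (filled) or protein-coding transcripts only (open), in 3 comparisons. For *Tsc2* after 0.2 Gy the 2 ways of counting give 1.63 and 0.03, and no interval shown belongs to a called gene.

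The gene sum of *Tsc2*, the GTPase-activating subunit of the TSC complex, was the most variable of the members and for the greater part not made of coding reads. The 0.5 Gy libraries had 804 and 373 CPM (0 h), 324 and 430.2 (1 h), 236 (2.5 h), 363 and 419 (4 h) and 402 (6 h). After 0.2 Gy it was at 190.0, 142, 245, 303 and 727. The processed transcript, whose last exon is printed above, held between 77.2% and 95.6% of these reads, and the coding transcripts between 2.22% and 13.2%. This transcript alone was at 745 in the highest 0 h library of 0.5 Gy and at 696 in the 6 h library of 0.2 Gy, the libraries in which the gene sum stood out. Coding transcripts of *Tsc2* stayed between 16.1 and 34.6 CPM, with 34.6 and 16.1 in just those libraries. *Tsc2* and *Pkd1* overlap at their 3' ends on opposite strands, and 6.68% of the stretches of 30 bases of *Tsc2* also occur in *Pkd1*. Coding transcripts hold shared stretches as well. In 1 of them 10.65% of the stretches occur in other genes, all from position 5574 on, and in another 9.07%.

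With this gene sum the log2 fold change of *Tsc2* was -0.42 (interval -1.02 to 0.18, and -0.06 without 0 h replicate 1) after 0.5 Gy and 1.63 (SE 0.43, interval 0.71 to 2.56) after 0.2 Gy. The second value missed the threshold with edgeR (adjusted p = 0.444), passed it with DESeq2 (adjusted p = 0.0384) and was 0.90 without the 6 h library. The difference between the doses was 1.90 (interval 0.75 to 3.06, adjusted p = 0.502 with edgeR). From coding transcripts the same changes were 0.23 (interval -0.27 to 0.74), 0.03 (interval -0.72 to 0.78) and -0.18 (interval -1.13 to 0.77), so that the direction turned in the first and the third. At 0.5 Gy the coding reads were at 27.7 ± 3.75 CPM late and 23.9 ± 7.54 early (SD, n = 4 each, exact two-sided permutation p = 0.429), and the processed transcript was between 185 and 367 late and between 285 and 745 early (exact permutation p = 0.314). Over the 10 quantities tested in this way the adjusted p was 0.286 or more. How far reads of other genes contribute to the processed transcript or to the coding transcripts was not tested.

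**Figure D4:**
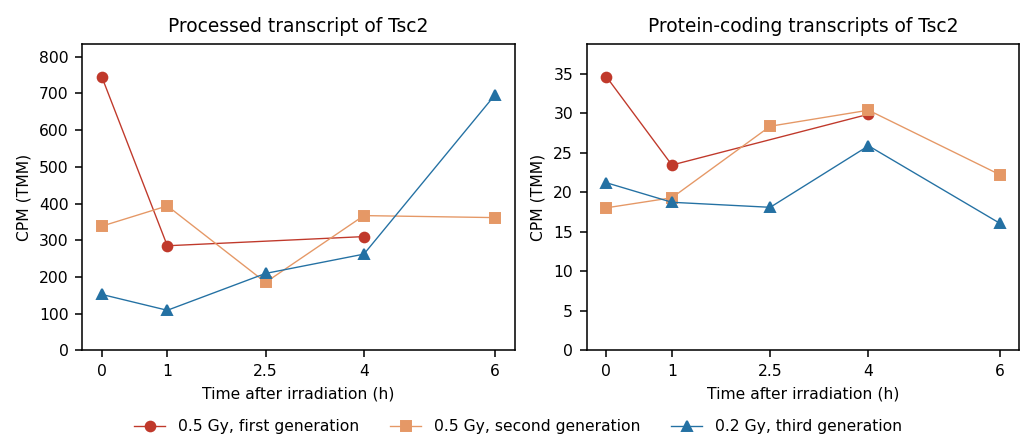
CPM (y axes from 0, different scales) of the processed transcript and of all protein-coding transcripts of *Tsc2* against time after irradiation (h), 1 point per library, with lines joining the libraries of 1 generation. The processed transcript spans 109 to 745 and the coding transcripts 16.1 to 34.6, and the 6 h library of 0.2 Gy is among the highest in the first and the lowest in the second.

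*Tsc1*, which stabilises TSC2, lay between 25.2 and 43.2 CPM, with the highest value at 2.5 h of either dose (41.1 and 43.2). Its late-to-early log2 fold change was -0.05 (interval -0.47 to 0.36) after 0.5 Gy and -0.22 (interval -0.74 to 0.30) after 0.2 Gy. Only 30.3% to 66.8% of its reads were on coding transcripts. *Mtor*, the kinase that the TSC complex restrains, was at 42.5, 45.7, 54.0 and 48.3 in the early libraries of 0.5 Gy and at 57.5, 56.6, 54.2 and 48.2 in the late ones (log2 fold change 0.21, interval -0.12 to 0.53). After 0.2 Gy it was at 35.3 and 35.7 at 0 and 1 h and at 52.1, 46.8 and 51.2 from 2.5 h on. The log2 fold change of 4 and 6 h against 0 and 1 h was 0.46 (SE 0.20, interval 0.03 to 0.90), with an adjusted p of 0.675 with edgeR. The difference between the doses was 0.30 (interval -0.25 to 0.84).

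A list of further pathway genes held 44 in 6 groups. Late against early after 0.5 Gy, 43 were tested and 2 were called, both higher, where 0.133% of all 22588 genes tested were called. The list was chosen with earlier results of these data known, and the study had already named both genes as expressed after irradiation. The count is therefore no measure of the pathway. *Phlda3*, which competes with AKT for membrane lipid, had a log2 fold change of 2.72 (SE 0.35, adjusted p = 0.0102 with edgeR). *Sesn2*, a sestrin that lowers TORC1 activity, had 2.48 (SE 0.36, adjusted p = 0.0247 with edgeR). *Phlda3* was at 2.44, 1.74, 3.46 and 4.29 CPM in the early libraries and at 20.8, 12.1, 25.0 and 20.4 in the late ones. *Sesn2* was at 2.52, 3.07, 4.27 and 5.06 early and at 20.9, 9.82, 24.7 and 27.1 late. Both genes were called in these same libraries, so that the separation of their early and late values adds no support. The members they act on, *Akt1* and *Mtor*, were not called, and the activity of the proteins was not measured. *Phlda3* lost its call without 0 h replicate 1, 4 h replicate 2 or the 6 h library (adjusted p = 0.0560, 0.0593 and 0.0566 with edgeR), and *Sesn2* kept it in 2 of the 8 fits that leave out 1 library (adjusted p = 0.00799 to 0.114 over these 8). *Sesn2* also lost it with limma on log2(TPM + 1) (1.15, adjusted p = 0.344), with the replicate block as labelled (adjusted p = 0.0522 with edgeR) or with 1 and 4 h exchanged (0.0520), and with 4 and 6 h only as late (0.0724). After 0.2 Gy no gene of the list was called with edgeR (*Phlda3* 1.72, adjusted p = 0.608, and *Sesn2* 2.51, adjusted p = 0.224), and DESeq2 called *Sesn2* (adjusted p = 0.000317).

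The other genes of the list tested after 0.5 Gy were not called. The median log2 fold change of the list was 0.03, with 25 genes higher and 18 lower, beside -0.02 for all genes tested, and after 0.2 Gy it was 0.21 with 29 higher and 15 lower, beside -0.03. The members' own medians were -0.05 (4 higher, 5 lower) and 0.22 (7 higher, 2 lower). After *Phlda3* and *Sesn2*, the largest positive value was that of *Pik3r2*, a regulatory subunit of PI3K, with 1.04 (interval 0.24 to 1.84, adjusted p = 0.445 with edgeR). *Ddit4*, an inducible inhibitor of TORC1, had 0.83 (interval 0.09 to 1.58, adjusted p = 0.500 with edgeR) at 2.51 to 8.60 CPM at 0.5 Gy. The most negative values in this list were those of *Inpp4a*, a lipid phosphatase, with -0.49 (interval -1.03 to 0.06), *Prkaa2*, a catalytic subunit of AMPK, with -0.40 (interval -1.20 to 0.39), and *Rps6*, the ribosomal protein phosphorylated downstream of TORC1, with -0.38 (interval -0.72 to -0.04, adjusted p = 0.500 with edgeR).

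**Figure D5:**
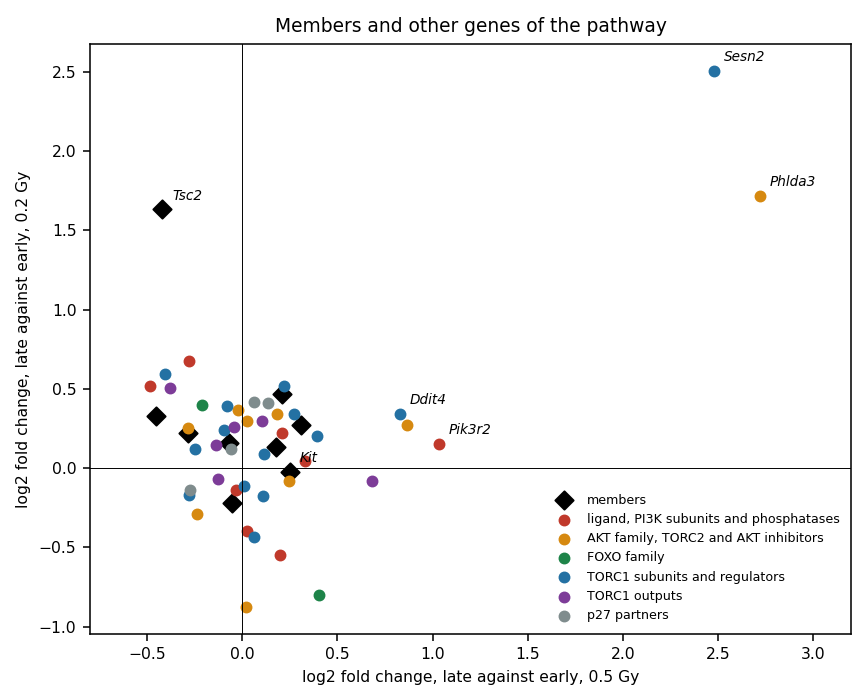
Log2 fold change late against early after 0.2 Gy (y axis) against that after 0.5 Gy (x axis) for the members (diamonds) and the other pathway genes (circles, coloured by list). *Phlda3* (2.72 and 1.72) and *Sesn2* (2.48 and 2.51) stand apart from the rest, and *Tsc2* (-0.42 and 1.63) is the member farthest from it, counting all its transcripts.

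*Kitl*, the ligand of KIT, which granulosa cells make, was present in all libraries at 82.4 to 364 CPM, with 115 and 364 in the 0 h libraries of 0.5 Gy alone. Its late-to-early log2 fold change was -0.03 (interval -0.74 to 0.68) after 0.5 Gy. Between the second and the first generation of 0.5 Gy, compared in a test added after the values were seen, 0 of the 9 members were called, where 0.493% of 25564 genes were.

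None of the 10 FOXO target genes and none of the 7 genes of growing oocytes was called in any comparison. Their median log2 fold changes late against early were -0.09 and -0.04 after 0.5 Gy and 0.20 and 0.55 after 0.2 Gy. The largest changes after 0.5 Gy were those of *Cited2* (-0.71, interval -1.17 to -0.25, adjusted p = 0.352 with edgeR) and *Irs2* (-0.44) among the targets, and of *Oosp1* (-0.85, interval -1.97 to 0.27) and *Bmp15* (-0.75) among the growth genes. After 0.2 Gy all 7 growth genes had a higher value late, with 2 libraries on each side. The corresponding difference between the doses was not called for any of them. Each of these genes was lowest at 1 h among those 4 libraries. In the same comparison 8 of 9 granulosa markers were higher (median 0.48), as were 7 of 8 markers of stroma and theca (0.54). Higher too were 8 of 10 markers of blood and immune cells (0.33) and 4 of 6 of endothelium (0.12). Of the 10 oocyte markers 4 were higher and 6 lower (-0.08). The higher ones include *Zp3* and *Gdf9*, which are also among the growth genes. How far the mixture of cells in a library enters the values of the growth genes was not tested.

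*Kit* and *Foxo3* were compared with the 10067 coding genes of at least 10 CPM by the root mean square difference of their centred log2 levels over 13 libraries. The genes nearest to *Kit* were *Ubap2l* (0.084), *Scpep1* (0.089) and *Tcn2* (0.102), where the median gene was at 0.34. Those nearest to *Foxo3* were *Gas7* (0.143), *Hcfc1* (0.158) and *Wdr73* (0.169), where the median was 0.40. This is a description of 13 libraries that share their scaling.

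The libraries held 15709549 to 30430104 estimated reads, the fewest in 0 h replicate 2 of 0.5 Gy, and 2.86% to 7.28% of them were mitochondrial. Summed CPM were 1792 to 2439 for 10 oocyte markers, 1165 to 2078 for 9 granulosa markers, 1966 to 3801 for 8 of stroma and theca, 76.2 to 163.7 for 6 of endothelium and 858 to 5812 for 10 of blood and immune cells. By these sums, RNA of cells other than oocytes was present in every library, and its part in the members' values was not tested. No marker was below 1 CPM in all libraries, but single markers fell below it in some, as *Cd68* did with 0.28 in 0 h replicate 2 of 0.5 Gy. The sum of blood and immune markers was highest in the 2 libraries of 4 h after 0.5 Gy. Most of it was haemoglobin, with *Hbb-bs* at 2624 and 2441, *Hba-a1* at 2117 and 1746 and *Hba-a2* at 935 and 1526. The immune markers *Ptprc*, *Cd68*, *Adgre1*, *Csf1r*, *S100a8* and *S100a9* were each highest in a 0 or 1 h library of 0.5 Gy. In bulk RNA, fewer cells of a type and less RNA per cell cannot be told apart.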

How the data were processed

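Per the labels and methods, the authors reverse transcribed oocyte RNA with the SMARTER kit, sequenced reads of 30 bases (called single-end in one place and paired-end in another) and ran salmon on the mouse transcripts of an Ensembl release of GRCm38. They deposited estimated counts and TPM values per transcript and library, with no normalization between libraries. The submitters' processing notes also name DESeq2 1.24.0. A merged table of normalized counts and 4 tables of the authors' own comparisons (fold changes and p-values per time point) were not used.

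Estimated counts were summed per gene of GENCODE M21 (GRCm38), matched on the transcript identifier, and rounded. The 402 transcripts without a gene (at most 0.495% of reads) were left out. Promoter windows are from RefSeq (GRCm38.p6), and protein sequences were not used here. Tests used edgeR 4.0.16 (TMM, filterByExpr, quasi-likelihood F test, Benjamini-Hochberg over all genes tested), with DESeq2 1.42.0 and limma 3.58.1 as alternatives, in R 4.3.3, and Python 3.11.15 with pandas 2.3.3, numpy 2.4.6, scipy 1.17.1 and matplotlib 3.10.9. Changes at 0.5 Gy were fitted over its 8 libraries, those at 0.2 Gy and the difference between doses over 11 libraries in 4 groups of dose and stage without 2.5 h (so that single time points took their spread from the others), the change per hour over 13 libraries with the generation as a block, and the dose over 13 libraries with the hour as a covariate. Calls needed an adjusted p below 0.05 and no minimum fold. Intervals are 95% and come from the fit. Levels are CPM on the TMM scale, log2 levels use a prior count of 2, and TPM were tested as log2(TPM + 1). A count of 0 allows for 3 reads, and counting intervals cover counting error only. The steps were also run on simulated counts with changes larger than any found for the members. Such a run does not show how small a change the tests could call.

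The named genes are the 9 members, the pathway genes called or with the 3 largest rises and falls late against early after 0.5 Gy, *Kitl*, *Phlda3*, *Sesn2* and *Ddit4*, the called genes and the 2 largest changes of the FOXO target and growing oocyte lists, and the 3 genes most like *Kit* and *Foxo3*. Members and lists were chosen with earlier results of these data known. The comparison of generations, and the fit without both 4 h libraries, were added after the values were seen. A further result that was planned is not reported here.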

Additional observations from a re-analysis of the deposited data

How the results depend on the processing

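Of 837 values of the members under other settings, 782 kept their direction and their side of the threshold, 53 turned the direction and 2 passed it. Both of these came from DESeq2, which called 1 member (*Tsc2*) late against early after 0.2 Gy and 1 member (*Cdkn1b*) for the level of 0.2 Gy against 0.5 Gy. No other setting called a member. The values that turned were mostly near 0, and the cause was not tested.

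Late against early after 0.5 Gy, limma on log2(TPM + 1) gave 0.34 for *Pdpk1*, 0.0079 for *Tsc1* and 0.43 for *Kitl*. *Tsc1* was at 0.097 without both 4 h libraries, *Tsc2* at 0.23 from coding transcripts, and *Kitl* at 0.031 with no filter and 0.15 with 4 and 6 h only as late. After 0.2 Gy, *Kit* was at 0.010 with RLE size factors and 0.029 with DESeq2, and *Tsc1* at 0.0091 from coding transcripts. For the difference between doses, RLE size factors gave 0.012 for *Akt1* and 0.039 for *Tsc1*, DESeq2 0.027 and 0.051, no filter 0.0042 for *Tsc1*, coding transcripts 0.25 for *Tsc1* and -0.18 for *Tsc2*, and limma -0.17 for *Pdpk1*. Per hour, limma gave -0.0018 for *Kit* and 0.043 for *Pdpk1*. For the level of 0.2 Gy against 0.5 Gy, coding transcripts gave 0.036 for *Pik3ca* and -0.33 for *Tsc1*, and limma 0.0080 for *Pdpk1*. Between the generations, coding transcripts gave -0.40 for *Tsc1*.

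Counts over all genes depended on the tool. For any time point of 0.5 Gy, no filter gave 175 calls and DESeq2 222 in place of 0. Late against early after 0.5 Gy there were 30 calls, 59 with no filter, 330 with DESeq2, 7 with limma and 14 with 4 and 6 h only as late. After 0.2 Gy there were 13, and 32, 157 and 56 with no filter, DESeq2 and limma, and 0 from coding transcripts. For the difference between doses there were 9, and 22, 140, 37 and 0 under these settings in the same order. Per hour there were 10, and 31, 258 and 0 with no filter, DESeq2 and limma. For the level of 0.2 Gy there were 5, and 17, 652 and 0 with no filter, DESeq2 and coding transcripts. Between the generations there were 126, and 254 and 993 with no filter and DESeq2.

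The labels number the duplicates of 0.5 Gy by generation. The correlation of their deviations over 26764 genes was 0.14 between 0 and 1 h, 0.08 between 0 and 4 h and 0.12 between 1 and 4 h, so that the number was not taken as a pairing. With the replicate block, late against early after 0.5 Gy gave 18 calls in place of 30, and *Sesn2* had an adjusted p of 0.0522 with edgeR. Without the replicate block, the change per hour gave 19 calls in place of 10. The block changed no call of a member.

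Leaving out 1 library at a time moved the counts over all genes to between 0 and 6 for any time point, 10 and 37 late against early after 0.5 Gy, 1 and 18 after 0.2 Gy, 0 and 13 for the difference between doses, 1 and 23 per hour, and 0 and 54 for the level of 0.2 Gy. After 0.5 Gy it moved *Tsc1* between -0.22 and 0.041 and *Kitl* between -0.23 and 0.34. After 0.2 Gy, where a side is then 1 library that is assumed to vary like the others, the ranges were -0.37 to 0.26 for *Kit*, -0.25 to 0.45 for *Foxo3*, -0.012 to 0.68 for *Akt1*, -0.0066 to 0.31 for *Pdpk1*, -0.45 to 0.076 for *Tsc1*, -0.066 to 0.66 for *Cdkn1b* and -1.06 to 0.43 for *Kitl*. For the difference between doses they were -0.62 to 0.032 for *Kit*, -0.29 to 0.42 for *Foxo3*, -0.31 to 0.39 for *Akt1* and -0.26 to 0.29 for *Tsc1*. Per hour they were -0.0015 to 0.043 for *Kit*, -0.029 to 0.041 for *Foxo3* and -0.057 to 0.0042 for *Pik3ca*, and for the level of 0.2 Gy -0.15 to 0.10 for *Pik3ca* and -0.017 to 0.18 for *Tsc1*.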
